A study of Mus musculus with 3 samples.

Results

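Nuclei rich in markers of vascular and lymphatic endothelium were selected in 3 droplet libraries of mouse cornea. A barcode, which stands for 1 droplet and at best 1 nucleus, was taken as a member when it had UMIs of at least 4 of 13 endothelial genes and these genes made up at least 10 times the share of its UMIs that they made up over all barcodes of its library. A UMI (unique molecular identifier) marks 1 captured RNA molecule. Only barcodes with at least 500 genes and at most 5% mitochondrial UMIs were considered. The rule found 357 members among 317975 barcodes. WT had 56 members, KO 119 and KO_PBS 182. The members were thus chosen on the measured counts of these 13 genes, and the level of those genes in members is a description of the choice.

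Blood and lymphatic vessels are lined by endothelial cells that hold to each other through VE-cadherin and PECAM-1 and read growth signals through VEGF receptors and the angiopoietin receptor Tie2. Lymphatic endothelium differs from blood endothelium in the transcription factor Prox1, in VEGFR3 and in the hyaluronan receptor Lyve1, and it secretes the chemokine CCL21, which guides dendritic cells and T cells. The healthy cornea is free of vessels apart from the limbus, the rim where it meets the conjunctiva. Inflammation can bring blood and lymphatic vessels into it.

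All 3 libraries came from frozen whole corneas of 5 pooled mice each at 7 weeks of age, per the labels. WT was from untreated wild-type mice, KO from untreated mice without Aire, and KO_PBS from mice without Aire that received phosphate-buffered saline (PBS) for 14 days. Aire lets the thymus display tissue antigens, and its loss leads to autoimmune disease of the tear glands and the eye surface. The series text states a younger age and an earlier day, and samples given lacripep, which it also mentions, were not analysed here. No label gives the strain, the sex or how much limbus was dissected, so the number of vessels in each pool is unknown.

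Each group is 1 library, so differences between libraries rest on no replicates and no p-value can be given. Intervals are exact 95% intervals, Poisson for UMI sums and Clopper-Pearson for shares, and cover counting error only. Aire itself had 15 UMIs in the whole of WT, 27 in KO and 68 in KO_PBS, near the floor in each, so it did not check the genotypes and the libraries are named as labelled. Depth was 256852883 UMIs for WT, 352627863 for KO and 178988562 for KO_PBS. Libraries shared 2833 to 3379 barcodes pairwise, but no member barcode was a member in another library.

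Members were rare in every library. They made up 0.058% (0.0438 to 0.0753) of the 96547 barcodes that passed the gene and mitochondrial limits in WT, 0.111% (0.0921 to 0.133) of 107025 in KO and 0.163% (0.140 to 0.188) of 111899 in KO_PBS. The share was lowest in WT and highest in KO_PBS, and the 3 intervals did not overlap. The count depends on a threshold that moves with the library, because the 13 genes held 41.0 of every 1000000 UMIs over all WT barcodes, 103 in KO and 240 in KO_PBS. With the WT minimum share applied everywhere the counts were 56, 229 and 377, and with the lowest share of a KO_PBS member applied everywhere they were 4, 10 and 182. Both alternatives were chosen after seeing the data. At 20 times the library's share, WT had 44 members, KO 19 and KO_PBS 23, so the order of the libraries turned.

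The same threshold tied depth to membership. A member with just 4 rule UMIs could have at most 9744 UMIs if it came from WT, 3899 from KO and 1665 from KO_PBS. The median WT member had 7228 UMIs, the median KO member 3768 and the median KO_PBS member 2024, against 2261, 2979 and 1445 in the other barcodes that passed. Members therefore came from deep barcodes in WT and from shallower ones in KO_PBS, and a share of members with a given gene cannot be compared between libraries without thinning. At the edge, the lowest member was 10.07 times over its library in WT, 10.00 times in KO and 10.07 times in KO_PBS, and the nearest barcode outside was at 9.78, 9.99 and 9.99 times.

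**Figure D1:**
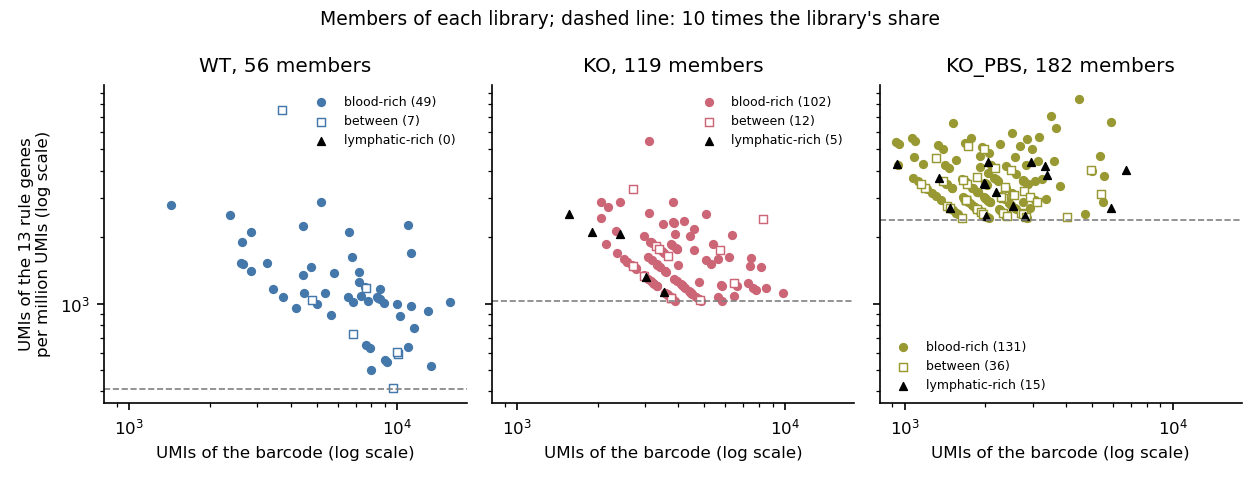
Each point is 1 member, placed by its UMIs (x axis, log scale) and by the UMIs of the 13 rule genes per 1000000 UMIs (y axis, log scale); the dashed line is 10 times the library's share. Filled circles hold no UMI of Prox1, Flt4 or Mmrn1, open squares hold 1 of these genes and black triangles at least 2. The line lies lowest in WT and highest in KO_PBS, and WT has no triangle.

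The receptors and junction genes of the rule were led by Egfl7, Emcn, Cdh5 and Pecam1 in WT and by Flt1, Ptprb, Egfl7 and Pecam1 in KO_PBS. Pecam1, the adhesion protein of endothelial junctions, was at 116 counts per 1000000 UMIs (CPM) in WT members, 248 in KO and 411 in KO_PBS, and at 3.36, 16.5 and 29.1 CPM in the other barcodes. Cdh5, which encodes VE-cadherin, differed least between libraries, with 118, 163 and 140 CPM. Flt1, the VEGF receptor that holds back signalling by binding the ligand, stood at 106 CPM among WT members, 89.4 in KO and 611 in KO_PBS. Its WT and KO intervals overlapped (76.2 to 143 and 64.9 to 120), while KO_PBS lay far above both (538 to 691).

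Kdr, the main signalling VEGF receptor, went from 75.5 and 118 CPM to 204 in KO_PBS, a smaller step than that of Flt1. Flt1 spans 164 kb of genome and Kdr 45.6 kb, and the part of gene length in this was not tested. Tek, which encodes Tie2, was at 55.4, 52.8 and 233 CPM, and Tie1, its partner receptor, at 37.8, 28.4 and 128. Ptprb, the phosphatase that restrains Tie2, was at 90.6, 104 and 481 CPM. Tek, Tie1 and Ptprb were thus close together in WT and KO and several-fold higher in KO_PBS. Emcn, a sialomucin of capillaries and veins, stood at 151, 126 and 409 CPM, Egfl7 at 274, 335 and 450, and Eng, a TGF-beta co-receptor, at 108, 221 and 310. Because the minimum share was highest in KO_PBS, none of these rises is independent of the rule.

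The lymphatic genes of the rule contributed little in WT. Prox1 had 1 UMI in WT members, 2 in KO and 33 in KO_PBS, where it was found in 27 of 182 members. Flt4, which encodes VEGFR3, had 5, 11 and 39 UMIs in 4, 11 and 29 members. Mmrn1 had 2, 10 and 20 UMIs in 2, 9 and 11 members. Prox1 is also made by lens fibres, and in KO_PBS it was at 13.1 CPM in the other barcodes too, against 1.32 in WT and 1.79 in KO.

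Whether the members carry an endothelial programme beyond the 13 genes was read from 40 pan-endothelial genes that the rule did not use. Of these, WT members had 31 above the level of the other barcodes, KO members 31 and KO_PBS members 38, and none was lower. Higher meant at least 2-fold, with at least 5 UMIs in members and intervals that did not overlap. By the same measure 5.85% of 20386 genes were higher in WT members, 1.8% of 20526 in KO and 4.11% of 23585 in KO_PBS. The median of the 40 genes was 1.74 in WT, 1.24 in KO and 2.10 in KO_PBS, as log2 of members over other barcodes with 10 CPM added to both, against 0.03, -0.01 and -0.03 over all genes. These genes come from the same barcodes as the rule, so their levels are a description, and none of them went against the label.

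Summed, the 40 genes reached 1704 CPM in WT members, 1920 in KO and 5991 in KO_PBS, against 219, 434 and 824 CPM in the other barcodes. The sum rose with the number of rule genes in WT, from 1274 CPM (1108 to 1458) in members with 4 of them to 1668 (1440 to 1921) with 5 and 2313 (2047 to 2604) with at least 6. In KO_PBS it went from 4104 (3795 to 4430) to 4786 (4354 to 5248) and 8424 (7986 to 8880), and in KO from 1642 (1500 to 1793) to 2345 (2063 to 2655) with no further step (2315, 2007 to 2657). Barcodes just outside the rule were intermediate. Those with the share but only 3 rule genes had 921 CPM in WT, 1014 in KO and 2277 in KO_PBS, and those with at least 4 rule genes but too low a share had 597, 997 and 2986.

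Thinning set the depth equal but not the minimum share of the rule, which was highest in KO_PBS. The values that follow are thus not independent of the choice of members. After each barcode was thinned to 1000 UMIs, at least 2 UMIs of the 40 genes were left in 37.5% (24.9 to 51.5) of 56 WT members, 51.3% (41.9 to 60.5) of 119 KO members and 84.3% (78.1 to 89.3) of 178 KO_PBS members. In the other barcodes the shares were 2.41%, 7.19% and 18.4%. The order of the 3 libraries was the same in members and in the other barcodes, and the WT and KO intervals overlapped.

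**Figure D2:**
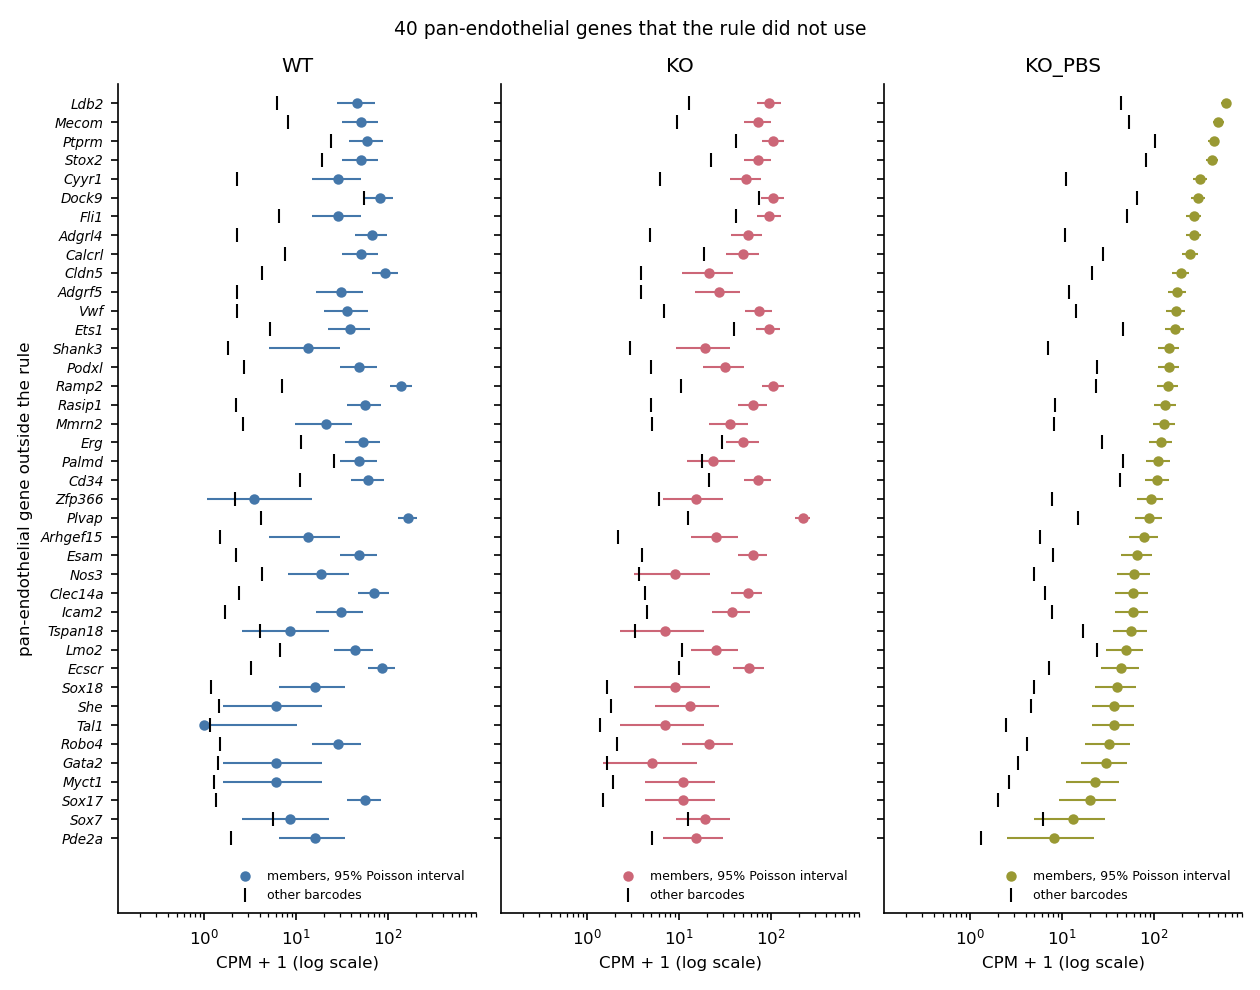
Each row is 1 of 40 pan-endothelial genes that the rule did not use, ordered by its level in KO_PBS members; dots are CPM + 1 in members with 95% Poisson intervals and ticks are the other barcodes of the same library (x axis, log scale). Most dots lie to the right of their tick in all 3 libraries, and Sox7 and Dock9 lie close to theirs in WT and KO.

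The 15 genes outside the rule that ranked first by the lowest of their 3 ratios of members to other barcodes, among 2209 genes with at least 20 UMIs in members of each library, were led by known endothelial genes. Rasip1, a Ras-interacting protein needed for vessel lumens, was 46.1-fold higher in WT members, 16.0-fold in KO and 17.8-fold in KO_PBS. Adgrl4, an endothelial adhesion receptor, was 50.5-, 14.5- and 27.5-fold higher, and Clec14a, a lectin of vessel walls, 50.03-, 16.9- and 10.4-fold. Lrg1, Mecom, Ramp2, Plvap, Ctla2a, Rgs5, Abcg2, Ccl21a, Slc9a3r2, Prex2, Plcb1 and Cdh13 completed the list. The ratio was highest in WT for most of them. Rgs5, a gene of pericytes, is the member of this list that points to another cell type, and its values are given with the mural genes below. Ccl21a has near-identical copies in the mouse genome, its 2 listed IDs were summed elsewhere, and how reads were split among the copies is uncertain.

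Lymphatic character was read by splitting members on the 3 lymphatic rule genes. Members with UMIs of at least 2 of Prox1, Flt4 and Mmrn1 (lymphatic-rich) numbered 0 of 56 in WT, which allows up to 6.38%, 5 of 119 in KO (4.20%, 1.38 to 9.53) and 15 of 182 in KO_PBS (8.24%, 4.69 to 13.2). Members with none of the 3 genes (blood-rich) numbered 49, 102 and 131, and 7, 12 and 36 lay between with 1 gene. The classes are ranges of a count and not types. The lymphatic-rich shares of the 3 libraries had overlapping intervals, also after thinning to 1000 UMIs, when they were 0%, 0.840% and 2.25%. Members with none of the 3 genes made up 98.2% (90.5 to 99.95) of thinned WT members, 94.96% (89.35 to 98.1) in KO and 84.3% (78.1 to 89.29) in KO_PBS, where the interval lay just below the others. The 3 genes belong to the rule, whose minimum share was highest in KO_PBS, so this order is not independent of the choice of members.

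Of the 16 lymphatic genes that the split did not use, 5 were higher in lymphatic-rich than in blood-rich KO_PBS members with separate intervals, none was lower, and 11 had overlapping intervals, Pdpn, Nrp2 and Itga9 among them. Among genes with at least 20 UMIs over both ranges, 4 of 9 lymphatic genes were higher and none lower, against 1.43% higher and 1.03% lower of 3779 genes outside the split. Ccl21a had 46 UMIs in the 15 lymphatic-rich members, 1105 CPM (809 to 1473), against 353 (236 to 506) in the 36 between and 44.5 (23.7 to 76.2) in the 131 blood-rich ones. Maf, a transcription factor found in lymphatic endothelium and also in lens, was at 1681 CPM (1310 to 2124), 851 (663 to 1075) and 363 (297 to 439) in the same order. Reln, which lymphatic endothelium secretes, was at 336 CPM (184 to 564) against 65.1 (39.2 to 102) in blood-rich members, and Stab1, a scavenger receptor, at 240 (115 to 442) against 61.7 (36.6 to 97.5). Lyve1, the hyaluronan receptor, had 8 UMIs in 4 of the 15 lymphatic-rich members (192 CPM, 82.9 to 379) and 1 UMI in the 131 blood-rich ones. For Ccl21a, Maf, Reln, Stab1 and Lyve1 the lymphatic-rich and blood-rich intervals did not overlap.

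Vwf, the von Willebrand factor of blood vessels, went the other way, with 65 UMIs in blood-rich members, 223 CPM (172 to 284), and 0 in lymphatic-rich ones, where 0 UMIs allow up to 88.6 CPM. Selp, the P-selectin of venules, had 34 UMIs in blood-rich members (117 CPM, 80.7 to 163) and 0 in lymphatic-rich ones, whose upper limit of 88.6 CPM overlaps that interval. Cyyr1 was at 397 CPM (328 to 477) in blood-rich members against 144 (52.9 to 314). Ldb2, an endothelial transcription cofactor, did not differ beyond its interval, at 651 CPM (562 to 750) and 552 (350 to 829). Cldn5, also of the pan-endothelial list, was higher in lymphatic-rich members with separate intervals, at 432 CPM (256 to 683) against 171 (127 to 226). Of the 15 lists of other cell types, erythroid genes were higher in lymphatic-rich than in blood-rich members (2137 CPM, 1716 to 2630, against 1055, 941 to 1180). Mural genes (696 CPM, 466 to 1000, against 1511, 1373 to 1659) and corneal epithelial genes (12031, 11000 to 13132, against 13862, 13438 to 14296) were lower. The erythroid value rested on 89 UMIs in the 15 lymphatic-rich members. Of the 462 erythroid UMIs of all KO_PBS members 56 lay in 1 member, and whether that member was lymphatic-rich was not read. Lens genes (lens also makes Prox1 and Maf) had overlapping intervals (5427 CPM, 4743 to 6183, against 5849, 5574 to 6133). Their part in the split was not tested. In KO the 5 lymphatic-rich members held 14 of the 33 Ccl21a UMIs, 1125 CPM (615 to 1887) against 11.7 (3.79 to 27.2) in the 102 blood-rich members. Those 5 members had just 9 UMIs of the pan-endothelial list, 723 CPM (331 to 1373), below the blood-rich KO members (1991, 1860 to 2130). The KO_PBS pan-endothelial sum was also lower in lymphatic-rich members (5283 CPM, 4608 to 6029) than in blood-rich ones (6427.5, 6140 to 6725). In WT all 27 Ccl21a UMIs lay in 6 of the 49 blood-rich members (78.4 CPM, 51.7 to 114), 19 of them in 1, and the 7 members between had 0, which allows up to 69.9 CPM.

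**Figure D3:**
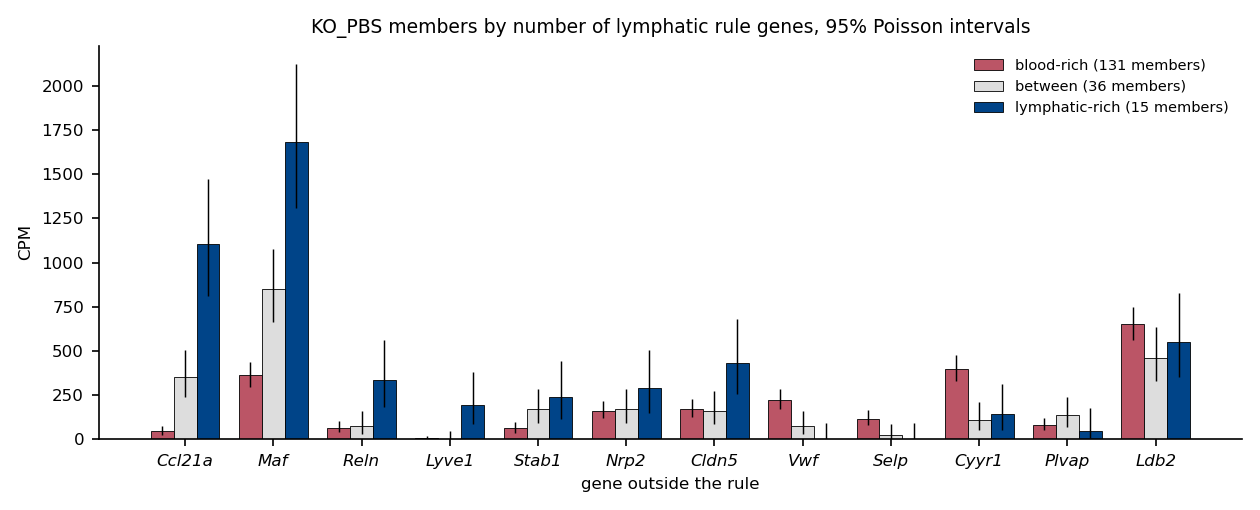
Bars are CPM of 12 genes outside the rule in KO_PBS members, grouped by how many of Prox1, Flt4 and Mmrn1 they hold (blood-rich 0, between 1, lymphatic-rich at least 2), with 95% Poisson intervals. Ccl21a, Maf, Reln, Stab1 and Cldn5 are highest in the 15 lymphatic-rich members, Vwf and Selp have no UMI there, and the Ldb2 intervals overlap.

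Capillary genes were lower in KO_PBS members than in KO members. Fabp4, a fatty acid carrier of capillary endothelium, had 131 UMIs in WT members (330 CPM, 276 to 391), 94 UMIs in KO members (191 CPM, 154 to 234) and just 10 among KO_PBS members (24.1 CPM, 11.5 to 44.2). Plvap, which forms the diaphragms of fenestrated capillaries, was at 164, 221 and 86.6 CPM, and Gpihbp1, which carries lipoprotein lipase to the capillary wall, had 8, 24 and 2 UMIs. KO_PBS was the lowest of the 3 libraries for each of these genes, although its members had the most UMIs of pan-endothelial genes. Of the 10 capillary genes, 3 had at least 20 UMIs over KO_PBS and KO together, and Fabp4, Plvap and Gpihbp1 were all lower in KO_PBS members, with a median log2 of -2.76 and a 7.94-fold ratio for Fabp4. The median for the same genes in the other barcodes was 0.30.

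The rule of size for such calls between libraries was at least 20 UMIs over both, a 2-fold ratio with counts below 3 set to 3, and intervals that do not overlap. By it, 4.57% of 7500 genes were lower in KO_PBS than in KO members and 13.4% were higher. Set against the 40 pan-endothelial genes, Fabp4 had 19.4 UMIs per 100 pan-endothelial UMIs in WT members (16.2 to 22.96), 9.95 in KO (8.04 to 12.2) and 0.401 in KO_PBS (0.193 to 0.738). Plvap, itself 1 of the 40 genes, had 10.6 (8.20 to 13.5), 13.04 (10.7 to 15.7) and 1.47 (1.03 to 2.03) per 100 UMIs of the others. The interval for KO_PBS lay below those of WT and KO for both genes. The pan-endothelial sum, the divisor on this scale, is not independent of the minimum share of the rule, which was highest in KO_PBS. Its part in the fall was not tested. Ecscr, Clec14a, Ramp2 and Esam, outside the capillary list, also had KO_PBS intervals below those of WT and KO, while Mecom and Ldb2 lay above. The fall on this scale is thus not particular to capillary genes. In WT the Fabp4 value rested in part on members that were also rich in another class, since without those 9 members it was 181 CPM (137 to 234), close to the 202 (162 to 248) of KO without its 8. The 5 members with most Fabp4 UMIs held 67.2% of them in WT (56 members) and 46.8% in KO (119 members).

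Rgcc, a cell cycle regulator of capillary endothelium, was higher in WT only, with 95.7 CPM (67.7 to 131) against 20.3 (9.74 to 37.4) in KO and 19.2 (8.31 to 37.9) in KO_PBS, while the other barcodes were at 5.70, 5.70 and 6.93. Arterial genes did not share an order. The 12 arterial genes summed to 176 CPM in WT members (137 to 223), 203 in KO (165 to 247) and 327 in KO_PBS (274 to 387), and of 4 with enough UMIs in KO and WT, Efnb2 and Jag1 were higher in KO and Sox17 lower, against 9.84% of all 6360 genes higher and 3.11% lower. Efnb2, the ephrin of arterial endothelium, had 4 UMIs in WT members, 31 in KO and 32 in KO_PBS, and the Notch ligand gene Jag1 had 9, 32 and 19. Sox17, an arterial transcription factor, had 22 UMIs in WT members, 5 in KO and 8 in KO_PBS, and by the rule of size KO was lower than WT (55.4 CPM, 34.7 to 83.8, against 10.2, 3.30 to 23.7). Gja4, the arterial connexin, had 21, 9 and 7 UMIs, and its KO and WT intervals overlapped. In the other barcodes the 12 arterial genes summed to 66.7, 134 and 107 CPM. The median log2 of KO over WT for the 4 tested genes was -0.006 in members and 0.81 in the other barcodes. Cldn5, the claudin of tight vessels, was at 93.1 CPM (65.6 to 128) in WT, 20.3 (9.74 to 37.4) in KO and 195 (155 to 242) in KO_PBS. Without members rich in another class Cldn5 was at 53.9 CPM (31.4 to 86.3) in WT and 20.2 (9.23 to 38.3) in KO, intervals that overlap, and Sox17 at 44.4 (24.3 to 74.5) and 8.97 (2.44 to 22.96), with 14 and 4 UMIs, fewer than the 20 the rule of size asks for.

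Of the genes of veins and of leukocyte capture, Selp alone was higher in KO than in WT members by the rule of size, 1 of 6 venous genes tested and 1 of 7 leukocyte adhesion genes, with none lower, against 9.84% of all genes. The median log2 of KO over WT was 0.98 for the venous and 0.31 for the leukocyte adhesion genes in members. In the other barcodes the same genes had 2.40 and 2.45. Between KO_PBS and KO members 4 of 7 venous genes were higher (Nr2f2, Ephb4, Vcam1 and Vwf) against 13.4% of all genes, and between KO_PBS and WT members 5 of 7 against 25.4%. Of 7 leukocyte adhesion genes 1 (Vcam1) and 3 (Icam1, Vcam1 and Selp) were higher in those comparisons. The venous median log2 was 1.02 in members and 0.87 in the other barcodes for KO_PBS against KO. Against WT it was 2.23 and 2.94. For leukocyte adhesion genes the values were 1.00 and 0.90, then 0.93 and 3.23. The minimum share of the rule was highest in KO_PBS, so directions in KO_PBS are not independent of the choice of members. Selp had 4 UMIs in WT members (10.1 CPM, 2.74 to 25.8), 21 UMIs in KO members (42.7 CPM, 26.4 to 65.2) and 36 among KO_PBS members (86.6 CPM, 60.6 to 120), and its KO and WT intervals did not overlap. Without members rich in another class Selp had 1 UMI in WT and 21 in KO. In KO these UMIs came from 13 of 119 members and in KO_PBS from 14 of 182, with 66.7% of the KO_PBS UMIs in the 5 members that had most. Vwf was at 35.2 CPM (19.3 to 59.1), 73.1 (51.2 to 101) and 171 (133 to 215). Per 100 pan-endothelial UMIs, its own left out, Vwf stood at 2.11 (1.15 to 3.54), 3.96 (2.77 to 5.48) and 2.93 (2.29 to 3.70). Selp, which is not in that list, stood at 0.591 (0.161 to 1.51), 2.22 (1.38 to 3.397) and 1.45 (1.01 to 2.00). On that scale the intervals overlapped between all 3 libraries for both genes. Those of Nr2f2, Ephb4 and Vcam1 overlapped between KO_PBS and KO, and Lrg1 was lower in KO_PBS (1.97, 1.46 to 2.60) than in KO (5.19, 3.84 to 6.86).

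Vcam1, a receptor for lymphocytes, was at 25.2, 58.9 and 118 CPM in members and at 6.92, 55.1 and 50.2 CPM in the other barcodes, which in KO is about the same level. Icam1 was at 10.1, 36.6 and 55.3 CPM against 1.78, 19.9 and 37.1. The E-selectin gene Sele had 5, 5 and 12 UMIs and the chemokine receptor gene Ackr1 10, 10 and 17, too few to order the libraries. The high endothelial venule genes Glycam1 and Madcam1 had 1, 11 and 0 UMIs and 0, 0 and 1 UMI. Jam2, a junctional adhesion molecule, had 17 UMIs in WT members, 8 in KO and 19 in KO_PBS.

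**Figure D4:**
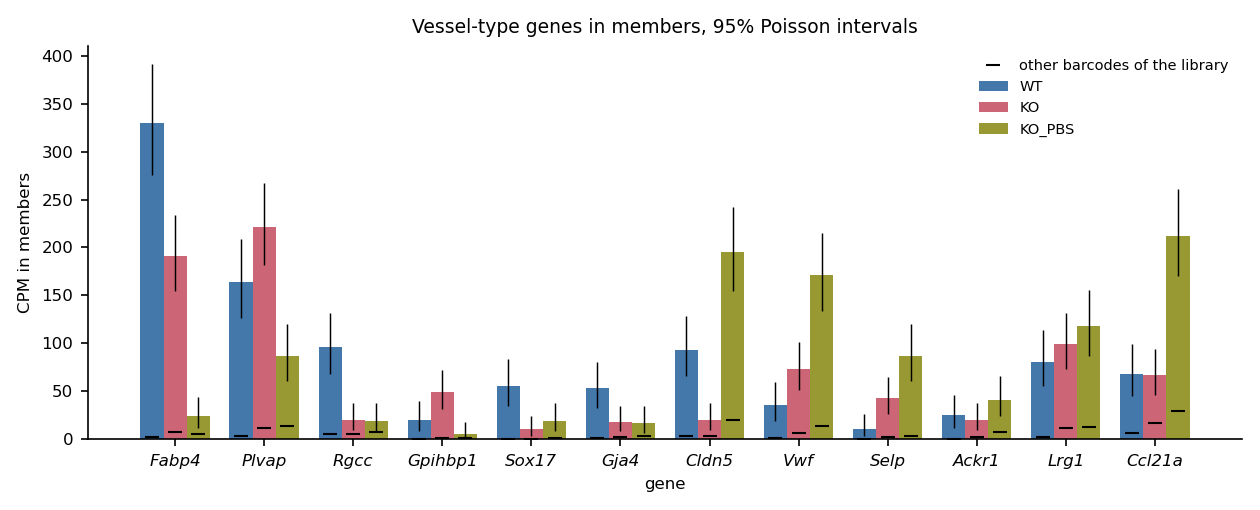
Bars are CPM in members of each library for capillary (Fabp4, Plvap, Rgcc, Gpihbp1), arterial (Sox17, Gja4), tight junction (Cldn5), venous (Vwf, Selp, Ackr1, Lrg1) and lymphatic (Ccl21a) genes, with 95% Poisson intervals; short lines are the other barcodes of the same library. Fabp4 falls from 330 CPM in WT to 24.1 in KO_PBS, while Vwf and Selp are highest in KO_PBS.

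Pan-endothelial genes differed little between KO and WT members and much between KO_PBS and KO. Of 28 of the 40 genes with enough UMIs, Fli1 and Ets1 were higher in KO than in WT members, and Cldn5 and Sox17 were lower, against 9.84% of all genes higher and 3.11% lower. Their median log2 was 0.21, against 0.24 over all genes tested and 1.22 for the same 28 genes in the other barcodes. Between KO_PBS and KO, 23 of 34 genes were higher, against 13.4% of all genes, and 1, Plvap, was lower, with a median log2 of 1.77 in members and 1.23 in the other barcodes. Of 10 lymphatic genes tested 8 were higher in KO_PBS than in KO members and none lower, with a median log2 of 1.88, against 0.31 over all genes and 1.18 for the same genes in the other barcodes. Per 100 pan-endothelial UMIs, Maf (2.96 in KO, 9.88 in KO_PBS) and Foxp2 (0.635 and 2.01) were higher with separate intervals. On that scale Pdpn (6.35 and 1.77) and Pard6g (4.23 and 1.69) were lower, and the rest of the 10 had overlapping intervals. The 16 lymphatic genes summed to 332 CPM in WT members (278 to 394), 494 in KO (434 to 560) and 1751 in KO_PBS (1626 to 1883), against 197, 387 and 943 in the other barcodes. The minimum share of the rule is itself higher in KO_PBS, so these directions are not independent of the choice of members.

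The higher genes among the 34 were longer in the median, with exceptions. The 23 higher genes spanned a median of 99.1 kb of genome and the other 11 a median of 13.5 kb. Cldn5, with a span of 1.42 kb, was 9.59-fold higher and Sox18, with 1.81 kb, 4.74-fold higher in KO_PBS than in KO members, while Ets1, with 122 kb, was not called. Mecom, a transcription factor with a span of 597 kb, was at 50.3 CPM in WT, 71.1 in KO and 500 in KO_PBS members, and Ldb2, with 328 kb, at 45.3, 95.5 and 604. Clec14a went from 70.5 and 54.8 to 57.7 CPM, Ramp2, an adrenomedullin receptor part, from 138 and 106 to 142, and Fabp4, with a span of 4.49 kb, fell to the level given above. Over all genes tested, those higher in KO_PBS than in KO members spanned a median of 77.5 kb and those lower 9.81 kb, against 31.8 kb for all tested. In the other barcodes the genes at least 2-fold higher and lower spanned 42.1 and 15.8 kb. Malat1, a nuclear RNA, was at 17890 CPM in KO_PBS members, 6021 in KO and 11506 in WT. What part gene length or nuclear RNA content has in the values of rule, pan-endothelial and capillary genes was not tested.

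Among VEGF and angiopoietin genes outside the rule, Nrp1 and Nrp2 were above the ligand genes Vegfa and Vegfc in members of every library. Nrp1, a VEGF co-receptor, was at 70.5 CPM in WT, 54.8 in KO and 176 in KO_PBS, and Nrp2, its lymphatic counterpart, at 32.7, 38.6 and 176. Both were higher in KO_PBS than in KO by the rule of size, as were Vegfb and Vegfc, 4 of 7 genes tested against 13.4% of all genes. Their median log2 over the 7 genes was 1.45 in members and 0.88 in the other barcodes, and the minimum share of the rule was highest in KO_PBS. Vegfc, the lymphatic growth factor, was at 7.55, 14.2 and 55.3 CPM, and in the other barcodes at 2.25, 5.23 and 10.7. Vegfa was at 10.1, 18.3 and 28.9 CPM in members, about the level of the other barcodes in KO (20.1) and KO_PBS (26.8). Angpt2, the angiopoietin that destabilises vessels, had 5, 11 and 13 UMIs. None of 3 genes tested differed between KO and WT. Of 12 angiogenic sprout genes, 4 were tested between KO_PBS and KO members (Angpt2, Nid2, Mcam and Pdgfb) and none differed. Their median log2 was 0.64 in members and 1.63 in the other barcodes. The 1 gene tested between KO and WT, Pdgfb, did not differ, and of 2 tested between KO_PBS and WT 1, Mcam, was higher.

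Notch and BMP genes were carried unevenly. Dll4, the Notch ligand of tip and arterial cells, had 3, 4 and 10 UMIs and Notch4, the endothelial Notch receptor, 1, 5 and 15. Hes1, a Notch target that the corneal epithelium also makes, was at 546, 374 and 195 CPM in members and 583, 409 and 173 in the other barcodes. Of 6 Notch genes tested between KO and WT members, Notch1 and Jag1 were higher, against 9.84% of all genes. None of 6 tested differed between KO_PBS and KO. Between KO_PBS and WT 5 were tested, with Notch1 higher and Hes1 lower. Of the ALK1 pathway, Acvrl1, the receptor, was at 12.6, 18.3 and 77.0 CPM and Smad1 at 35.2, 44.7 and 188, and both were higher in KO_PBS than in KO, together with Bmpr2, Bmp4 and Smad6, 5 of 8 genes tested against 13.4% of all genes. Over the 8 genes the median log2 was 1.61 in members and 0.71 in the other barcodes, and the minimum share of the rule was highest in KO_PBS. The target Id3 was at 375 CPM (317 to 440) in WT, 189 (153 to 231) in KO and 274 (226 to 329) in KO_PBS, against 106, 102 and 246 in the other barcodes. Id3 was thus at least 2-fold above the other barcodes in WT members, less than 2-fold above them in KO and near their level in KO_PBS. Between KO_PBS and WT members 4 of 8 genes of this list were higher (Acvrl1, Bmpr2, Bmp4 and Smad1) and 1, Id1, was lower. Over all genes 25.4% were higher and 5.9% lower.

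Of 14 junction and caveola genes, 6 were higher than in the other barcodes in WT members, 4 in KO and 5 in KO_PBS, against 5.85%, 1.8% and 4.11% of all genes. Esam, Cldn5, Cav1 and Cavin2 stood above the other barcodes in every library. Cav1, the coat protein of caveolae, was at 146, 104 and 125 CPM against 21.6, 32.9 and 39.5. Ctnnb1, Ctnnd1, Afdn and Tjp1, which epithelia share, were within 2-fold of the other barcodes in every library. Among basement membrane genes, Col4a1 was at 144, 252 and 192 CPM against 31.9, 50.6 and 111, and Col15a1, which marks vessel basement membranes, at 35.2, 65.0 and 48.1 against 1.45, 6.17 and 6.54. Between KO and WT members 1 of 12 basement membrane genes was higher, Lamc1 (67.0 against 17.6 CPM), and between KO_PBS and KO 1 of 13, the endothelial laminin Lama4 (188 against 56.9 CPM). Over all genes the shares were 9.84% and 13.4%, so neither count was above the background. Between KO_PBS and WT members 6 of 11 were higher (Col4a2, Lama4, Lamb2, Lamc1, Hspg2 and Col18a1), against 25.4% of all genes. The median log2 of these 11 genes was 1.11 in members and 1.86 in the other barcodes.

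Interferon and antigen presentation genes were far higher in KO than in WT members, and so they were in all other barcodes. Of 32 genes, 31 had enough UMIs and 30 were higher in KO, none lower, with a median log2 of 2.21, against 9.84% higher, 3.11% lower and a median of 0.24 over all genes. The same 31 genes in the other barcodes had a median of 3.48. H2-T23 was the gene that was not higher (114 against 78.0 CPM). Iigp1, an interferon-induced GTPase, was at 30.2 CPM in WT members (15.6 to 52.8) and 528 in KO members (466 to 596), a 17.5-fold ratio, and 97.4-fold in the other barcodes. Between KO_PBS and KO members 3 of 32 genes were higher (Tapbp, Irf7 and Cxcl10) and 2 lower (Psmb9 and Psmb10), near the 13.4% and 4.57% of all genes, with a median log2 of 0.01.

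Against the other barcodes of their own library, 9 of 32 genes of this list were higher in WT members, none in KO members and 1 in KO_PBS members, against 5.85%, 1.8% and 4.11% of all genes. The KO and KO_PBS counts are near those shares. In WT, the class II genes H2-Aa, H2-Ab1, H2-Eb1 and Cd74 were at 151, 146, 144 and 471 CPM in members against 20.6, 22.7, 22.9 and 65.4 in the other barcodes. H2-Aa was found in 22 of 56 WT members. The 5 members with most UMIs of the gene held 55% of the H2-Aa UMIs and 62.6% of the Cd74 UMIs. Myeloid genes, whose cells carry class II, were also higher there, at 385 CPM in members (326 to 451) against 122, with 6 of 10 genes higher against 5.85% of all genes, none at 0 and 2 members rich in them. Without the 9 WT members rich in any other class, H2-Aa was at 111 CPM (77.3 to 154), Cd74 at 260 (207 to 323) and the myeloid sum at 260 (207 to 323), so class II stayed above the other barcodes. Its source was not tested.

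In KO the summed list was at 14552 CPM in members and 13181 in the other barcodes, and in KO_PBS at 12382 and 12157. H2-Aa was at 687 against 613 CPM in KO and at 601 against 704 in KO_PBS. The members of KO and KO_PBS were thus close to the other barcodes of their library. In KO_PBS the 1 gene of the 32 that was higher in members was Nlrc5, the regulator of class I genes. It was at 130 CPM (97.6 to 170) against 46.4, and 1 such gene is near the 4.11% of all genes. Gbp5, a guanylate-binding protein outside the list, was at 166 CPM (129 to 210) in KO_PBS members against 48.6, at 44.7 against 25.1 in KO, and had 0 UMIs in WT members. Iigp1, Gbp4 and Gbp7 were at 1.92, 1.88 and 1.89 times the other barcodes in KO_PBS, just under the 2-fold limit.

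**Figure D5:**
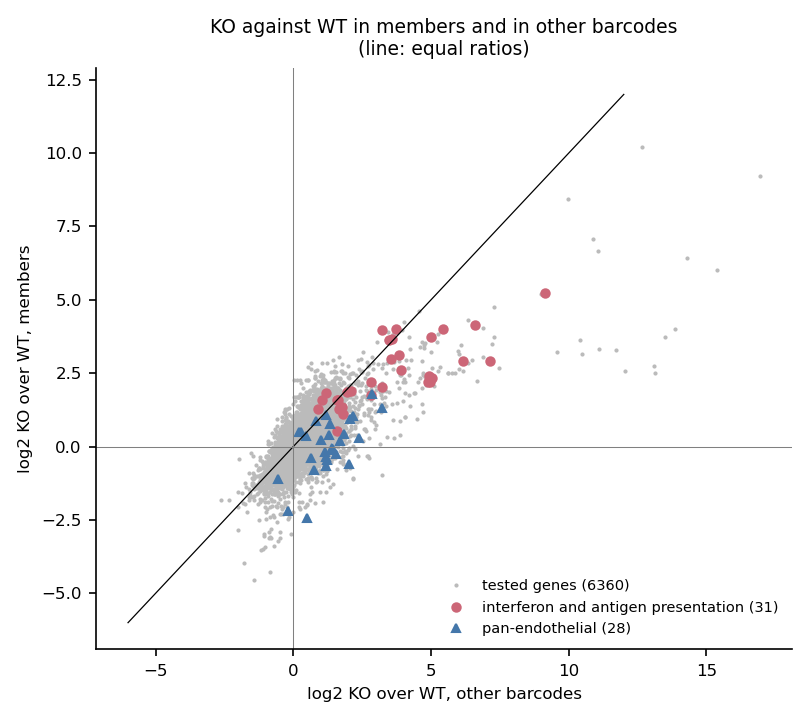
Each point is 1 of 6360 genes, with log2 of KO over WT in the other barcodes (x axis) and in members (y axis); the line marks equal ratios. The 31 interferon and antigen presentation genes all lie above 0 on both axes, and most of the 28 pan-endothelial genes lie to the right of the line.

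Markers of other cells moved with some of these values. Corneal epithelial genes such as Krt12, the keratin of corneal epithelium, were the largest foreign share. The 10 genes summed to 35187 CPM in WT members, 28139 in KO and 13741 in KO_PBS, below the other barcodes in each (45639, 32766 and 18778). Mural genes of pericytes and smooth muscle summed to 725 CPM in WT members, 431 in KO and 1239 in KO_PBS, against 143, 208 and 656. Of the 10 mural genes 8 were higher in WT members than in other barcodes, 2 in KO and 4 in KO_PBS, against 5.85%, 1.8% and 4.11% of all genes, and Kcnj8 was at 0 in KO. Rgs5 was at 138, 79.2 and 159 CPM, and without members rich in another class at 102, 47.1 and 88.9.

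Haemoglobin and other erythroid genes summed to 1326 CPM in WT members, 1521 in KO and 1111 in KO_PBS, against 55.2, 212 and 1236 in the other barcodes. In WT 92.0% of these UMIs came from 5 members, and 253 of the 295 Hbb-bs UMIs from 1. Without members rich in another class the sums were 175, 509 and 938 CPM. Keratocyte genes stood at 2573 CPM in WT members against 1196, with 2 members rich in them, and at or below the other barcodes in KO and KO_PBS. Lens genes summed to 5861 CPM in KO_PBS members and 8123 in its other barcodes, against 433 and 205 CPM in WT and KO members. Members rich in another class, by the same rule applied to that class's markers, numbered 9 in WT (5 mural, 2 keratocyte, 2 myeloid and 1 erythroid), 8 in KO (6 erythroid and 2 mural) and 3 in KO_PBS (2 mural and 1 erythroid). In WT 1 of the 9 was rich in 2 classes. Whether such barcodes held 2 nuclei was not tested.

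Across all genes, KO and WT members differed in 626 genes higher and 198 lower of 6360, or 387 and 353 when ratios were centred on their median. When each ratio was divided by that of the other barcodes, 11 genes were higher and 265 lower, so the balance turned. Of the higher ones 75.6% were also at least 2-fold higher in the other barcodes, and of the lower ones 33.8%. Among the 8 most higher genes with at least 100 CPM, the protease inhibitor Slpi, the acute phase gene Saa3, the immunoglobulin J chain Jchain and the chemokine Cxcl9 led. Slpi was at 2622 CPM in KO members and 3935 in the other barcodes, with 2 UMIs in WT members. Saa3 was at 1008 and 1229 CPM, Jchain at 762 and 1063 and Cxcl9 at 284 and 203, with 1, 0 and 0 UMIs in WT members. Ccl5, Krt16, S100a9 and Chil1 completed them, and apart from Cxcl9 each was lower in KO members than in the other KO barcodes.

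The genes most lower in KO than in WT members were Gm10800, Gm13889, Tagln, Acta2, Cryab, Ptgds, Retnla and Dct. Tagln and Acta2, genes of smooth muscle, were at 128 and 196 CPM in WT members and 12.2 and 38.6 in KO, and in the other barcodes at 17.0 and 33.6 against 10.6 and 20.4. Without members rich in another class Acta2 was at 44.4 CPM (24.3 to 74.5) in WT members and 40.4 (23.9 to 63.8) in KO members, so its difference rested on those members, and Tagln at 50.8 and 11.2. Of the 52 Retnla UMIs in WT 48 came from 1 member, and 96.4% of the 56 Gm10800 UMIs from 5 members. Cryab, Ptgds and Dct were lower by similar ratios in the other barcodes.

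KO_PBS and KO members differed in 1002 genes higher and 343 lower of 7500, 620 and 651 after centring, and 214 and 61 after division by the other barcodes. Of the 1002 and 343 genes, 56.9% and 53.4% were 2-fold in the same direction in the other barcodes. Among the genes most higher were the lens crystallins Cryge, Crygd and Crygs, the pigment genes Pmel and Tyrp1, the photoreceptor gene Gnat1 and the neuronal RNA Bc1. Cryge was at 476 CPM in KO_PBS members and 651 in the other KO_PBS barcodes, and Gnat1 at 277 and 366. None of these named genes was higher in members than in the other barcodes. The genes most lower were Slpi, AY036118, Saa3, Nme2, Gm15564, Atp6v0c, D130009I18Rik and 2900060B14Rik. Slpi fell from 2622 to 21.7 CPM, and AY036118 from 17753 to 370 CPM, against 19411 and 513 in the other barcodes. Nme2 overlaps a gene that is not in all 3 gene lists, so reads may have been assigned differently there.

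KO_PBS and WT members differed in 1751 genes higher (25.4% of 6882) and 406 lower (5.9%), or 748 and 1105 after centring, and 104 and 365 after division by the other barcodes. Of the 1751 and 406 genes, 78.7% and 50.7% were 2-fold in the same direction in the other barcodes. Bc1, Cxcl9, Gbp7, Gnat1, Cryge, Crybb2 and Gbp5 were among the most higher. Of these Gbp7 (296 against 156 CPM) and Gbp5 were above the other KO_PBS barcodes. Gm15564, D130009I18Rik, AY036118, Nme2, Jarid2, Atp6v0c, 2900060B14Rik and Ccdc85b were most lower. Jarid2 was at 6147 CPM in WT members, 161 in KO_PBS members, and at 8200 and 120 in the other barcodes.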

How the data were processed

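Each library was a 10x 3' gene expression library of nuclei. The authors deposited raw UMI counts per gene and barcode, which the file headers credit to Cell Ranger 7.0.1, on mm10 per the submitters' processing notes. The annotation release and whether intron reads were counted are not given in the sources used here, and the gene lists differ (32285 IDs in WT and KO, 31053 in KO_PBS), so 30406 shared IDs were used. Counts were summed over members and over all other barcodes of a library and scaled to 1000000 UMIs (CPM). No doublet caller was run. With 1 library per group no test was possible.

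A gene differed between libraries (rule of size) with at least 20 UMIs over both, a ratio of at least 2 with counts under 3 set to 3, and separate 95% Poisson intervals. The measure of members against other barcodes was set after its values were seen and describes the choice, since the rule used that contrast. Genes named were the 13 rule genes, genes of the lists with at least 10 UMIs in members of a library, the 15 top shared genes, and per comparison the 8 largest ratios each way among genes whose higher library reached 100 CPM (mitochondrial, ribosomal protein and immunoglobulin genes left out). Some genes that met this rule are not reported here. Malat1, Gbp5, Lyve1 and Madcam1 were named after their values were seen. The members and lists were chosen with earlier results of these data known. Gene spans came from GENCODE M21. Alternatives changed the gene and share minimums, the UMI minimum, the scaling and the depth. The counting steps were tested on simulated data. Python 3.11.15, numpy 2.4.6, pandas 2.3.3, scipy 1.17.1 and matplotlib 3.10.9 were used.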

Additional observations from a re-analysis of the deposited data

How the results depend on the processing

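Member counts moved with the rule. With at least 3 rule genes there were 136 members in WT, 272 in KO and 287 in KO_PBS, and with at least 5 there were 29, 40 and 93. At 20 times the library's share KO had 19 and KO_PBS 23, below the 44 of WT, so the order of the libraries turned. The WT minimum share gave 229 in KO and 377 in KO_PBS, and the lowest share of a KO_PBS member gave 4 in WT and 10 in KO, both chosen after seeing the data. The lymphatic-rich share was 0.840% in KO and 2.25% in KO_PBS after thinning, and with at least 1 of Prox1 and Mmrn1 it was 5.36% (1.12 to 14.9) in WT, 8.403% (4.10 to 14.9) in KO and 18.1% (12.8 to 24.5) in KO_PBS, with overlapping intervals.

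Genes higher and lower in KO than in WT numbered 387 and 353 after centring on the median gene, 411 and 116 with at least 50 UMIs, 262 and 87 with at least 5 rule genes, and 318 and 95 at equal numbers of barcodes and UMIs. After division by the other barcodes 11 were higher and 265 lower, so the balance turned. For KO_PBS against KO, centring gave 620 and 651 and division 214 and 61. The higher genes numbered 553 with at least 50 UMIs, 644 with at least 5 rule genes and 598 at equal numbers. For KO_PBS against WT, centring gave 748 and 1105 and equal numbers 505 and 217. The higher genes numbered 983 with at least 50 UMIs and 104 after division, with 365 lower. The cause was not tested. No paired analysis was possible because each group is 1 library. With 56 WT members, genes under 20 UMIs over both libraries were not called by the rule of size.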
